A study of Homo sapiens with 8 samples.

Results

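The products hsa-miR-103a-3p, hsa-miR-107 and hsa-miR-103a-2-5p (below without the prefix for human) are microRNAs (miRNAs) cut from hairpins that lie inside introns of the pantothenate kinase genes PANK1, PANK2 and PANK3. They were taken by name from the deposited count tables, where they are 3 of 2575 miRNA names, by a rule that uses names alone. The tables hold small RNA from HCT116, an established line of human colorectal cancer cells that carries wild-type p53; it was cultured attached to the plate and used at passages 16 to 19. For 4 libraries, HCT116 cells were kept for 6 hours together with ETBF, enterotoxigenic Bacteroides fragilis, at a multiplicity of infection of 500. ETBF is a gut bacterium whose toxin is a metalloprotease. For the other 4, titled untreated, the protocol in the labels says that cells got the bacterial medium alone. The labels do not say whether the 4 replicates of a group were separate cultures, so p-values measure the spread between these libraries, which may be technical.

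A miRNA guides an Argonaute protein to messenger RNAs, mainly by pairing of its seed, the bases near its 5′ end, with a complementary site. Pantothenate kinases catalyse the first committed step of coenzyme A synthesis, and each of these hairpins is thought to be transcribed together with its host gene's intron. MiR-103a-3p and miR-107 are known to repress DICER1, the enzyme that cuts miRNA hairpins, and CAV1, a membrane protein through which they affect insulin signalling. In colorectal cancer cells they are known to repress the metastasis suppressors DAPK1 and KLF4, and miR-107 has been described as induced by p53. Both have also been used as reference miRNAs for normalising PCR measurements.

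The mature sequences are shown because the main products differ by a single base and share their seed. From RefSeq (GRCh38.p14), 5′ to 3′, with the seed (bases 2 to 8) in capitals, they read as follows.
miR-103a-3p: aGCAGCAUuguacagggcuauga
miR-107: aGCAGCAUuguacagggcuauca
miR-103a-2-5p: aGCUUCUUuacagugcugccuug
miR-16-5p: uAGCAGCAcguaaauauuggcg
MiR-103a-3p and miR-107 are both 23 bases long and differ by G22C, where positions count from 1 at the 5′ end and the first letter is the base of miR-103a-3p. The difference lies outside the seed, next to the last base, so a read that lacks its 3′ end fits both names, and how such reads were assigned is not given in the sources used here. Among the 2260 of 2575 measured names with a single RefSeq sequence, these 2 were the names with the seed GCAGCAU. MiR-16-5p is shown for comparison, since the run AGCAGCA stands at bases 2 to 8 there and at bases 1 to 7 in miR-107. MiR-103a-2-5p, the other arm of its hairpin, has an unrelated seed.

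The hairpins show where each product is cut. From RefSeq (GRCh38.p14), with the listed mature arms in capitals, they read as follows.
MIR103A1: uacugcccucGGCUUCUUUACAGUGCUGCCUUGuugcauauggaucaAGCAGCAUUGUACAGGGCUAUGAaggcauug
MIR103A2: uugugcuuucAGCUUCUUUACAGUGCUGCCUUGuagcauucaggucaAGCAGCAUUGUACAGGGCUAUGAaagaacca
MIR107: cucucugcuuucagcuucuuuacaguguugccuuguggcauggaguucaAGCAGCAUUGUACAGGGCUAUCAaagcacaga
On GRCh38 in GENCODE 29, MIR103A1 lies on chromosome 5 at 168560896 to 168560973 on the minus strand, within an intron of 1 of the 2 annotated coding transcripts of PANK3. MIR103A2 lies on chromosome 20 at 3917494 to 3917571 on the plus strand, within an intron of all 6 coding transcripts of PANK2. MIR107 lies on chromosome 10 at 89592747 to 89592827 on the minus strand, within an intron of all 3 coding transcripts of PANK1. Each hairpin has the strand of its host gene and overlaps no exon of those transcripts. The 2 miR-103a hairpins give the same 3′ product, so a count of miR-103a-3p cannot be divided between PANK2 and PANK3. The 5′ arm separates them: miR-103a-2-5p differs from the listed arm of MIR103A1 by A1G, and from the matching stretch of the MIR107 hairpin by C16U (positions along miR-103a-2-5p).

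Library totals ran from 2591655 to 4706156 counts with ETBF and from 5243400 to 6522542 in controls. Pairs of libraries within a group differed by far more than sampling noise, with a chi-square per degree of freedom of 22.0 to 141.5. Epithelial and gut miRNAs were present, led by miR-200c-3p at 10218 to 14363 CPM, counts scaled to a common library size, and 2 of 10 tested entries rose while 5 fell, where 19.8% of all 480 tested miRNAs were higher and 14.6% lower. They summed to 28906 to 31955 CPM with ETBF and 32014 to 34169 CPM in controls. Blood and endothelial markers summed to 1071 to 1303 CPM with ETBF and 1477 to 1664 CPM in controls (1 of 5 tested higher, 1 lower), mostly from miR-126-3p. Stromal and muscle markers summed to 386 to 427 and 413 to 427 CPM, with miR-206 at 0. Neuronal and liver markers summed to 7535 to 9611 and 7792 to 9789 CPM, nearly all of it miR-9-5p, with miR-124-3p at 0. Entries that resemble ribosomal or other RNA, a sign of RNA quality, summed to 205 to 620 CPM with ETBF and 54.7 to 188.5 CPM in controls, and 5 of 7 tested rose while 0 fell. The sums of the epithelial, blood and ribosomal-like entries did not overlap between the groups, while the stromal and the neuronal and liver sums did. The part of these entries in the results below was not tested.

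Both main products of the PANK introns rose after 6 hours with ETBF, by nearly the same factor: miR-103a-3p 1.30-fold and miR-107 1.31-fold. The 2 names can share reads, so these rises may not be independent. The third member, miR-103a-2-5p, was too rare to be tested with the others. Of the 3 members 2 passed the filter on low counts, and both were higher. Among all 480 miRNAs tested, 19.8% were higher with ETBF, 14.6% were lower and 34.4% differed in either direction, so the rise is one of many.

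MiR-103a-3p, the main product of PANK2 and PANK3, had 69947, 60034, 54852 and 39521 counts in ETBF replicates 1 to 4. It had 54318, 71199, 56068 and 72043 counts in control replicates 1 to 4. After scaling with TMM factors, which correct for depth and composition, these became 15026, 14102, 14083 and 14786 CPM with ETBF and 10797, 12534, 10654 and 10740 CPM in controls. All 4 ETBF libraries lay above all 4 controls, and control replicate 2 stood apart from the other controls, nearest to the ETBF libraries. The means were 14499 ± 480 CPM in ETBF libraries and 11182 ± 904 CPM in control libraries (mean ± SD, 4 libraries per group). The log2 fold change was 0.37 (SE 0.07, edgeR quasi-likelihood adjusted p = 0.000485). As a share of all counts, with no scaling factor, it made up 1.48% ± 0.0464 with ETBF and 1.10% ± 0.0632 in controls (mean ± SD, 4 libraries per group).

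MiR-107, the product of PANK1, had 2309, 2119, 1869 and 1173 counts with ETBF and 1764, 2051, 1926 and 2581 in controls. The scaled levels were 496, 498, 480 and 439 CPM with ETBF and 351, 361, 366 and 385 CPM in controls. The groups did not overlap, with ETBF replicate 4 the lowest of its group and control replicate 4 the highest of the controls. The means were 478 ± 27.4 CPM in ETBF libraries and 366 ± 14.3 CPM in control libraries (mean ± SD, 4 libraries per group). The log2 fold change was 0.39 (SE 0.07, edgeR adjusted p = 0.000589). Its share of all counts was 0.0487% ± 0.00298 with ETBF and 0.0359% ± 0.00283 in controls. Of the 480 tested miRNAs, 18.1% were higher with ETBF without overlap between the groups, as both of these were.

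MiR-103a-2-5p, the passenger arm that is normally discarded when the guide is loaded, had 9, 5, 5 and 7 counts with ETBF and 2, 5, 9 and 3 in controls. This gave 1.93, 1.17, 1.28 and 2.62 CPM with ETBF and 0.398, 0.880, 1.71 and 0.447 CPM in controls. The groups overlapped, since control replicate 3 lay above ETBF replicates 2 and 3. Summed over a group there were 26 counts with ETBF, with an exact 95% Poisson interval of 17.0 to 38.1. The controls had 19 counts, with an interval of 11.4 to 29.7. In CPM of the pooled counts this is 1.71 (1.12 to 2.50) and 0.823 (0.496 to 1.29), where the intervals describe counting error alone: without molecular identifiers, several reads can come from 1 molecule. In the fit without a filter, over 1496 names, its log2 fold change was 0.94 (SE 0.53, edgeR adjusted p = 0.367). A difference was not detectable at this depth.

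**Figure D1:**
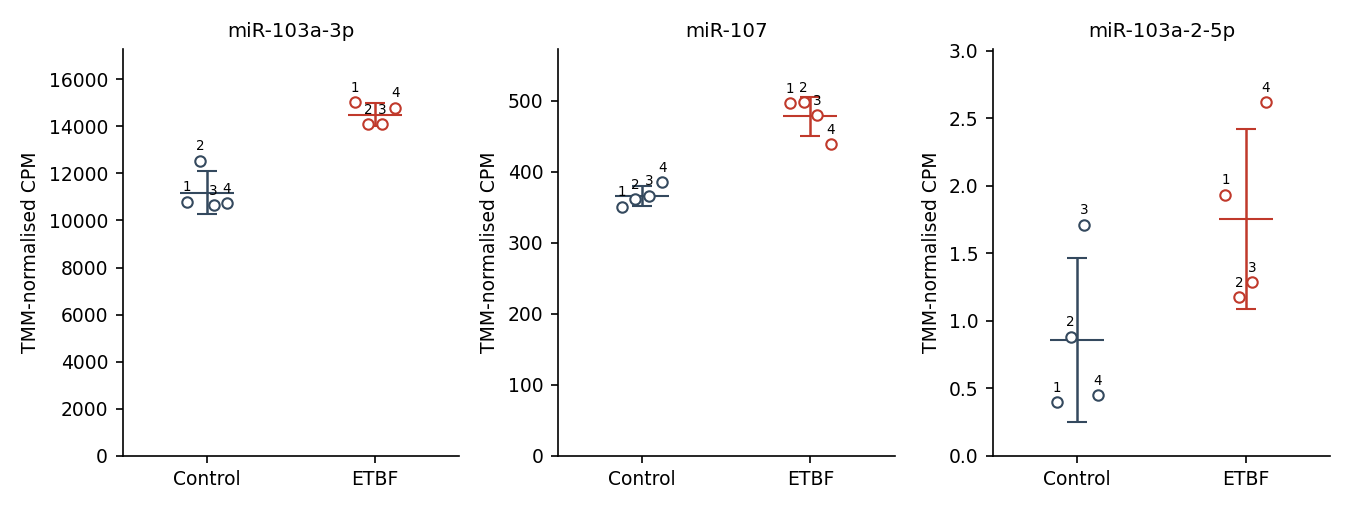
Level of each of the 3 miRNAs in every library, in TMM-normalised CPM on a linear axis from 0. Circles are libraries with their replicate numbers, and the bar and whiskers are the mean and SD of 4. The ETBF libraries of miR-103a-3p (14083 to 15026 CPM) and miR-107 (439 to 498 CPM) lie above all controls, while those of miR-103a-2-5p overlap them.

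The antisense entry miR-103b, which is the exact reverse complement of miR-103a-3p and is annotated on the opposite strand of both miR-103a hairpins, had 0 counts in all 8 libraries. That count of 0 allows up to 3 counts, or 0.460 to 1.16 CPM depending on the library. The sense product at the same positions had at least 39521 counts in every library. Counts of miR-103a-3p were odd in 4 of 8 libraries and those of miR-107 in 6 of 8. A doubling of every read over the 2 miR-103a hairpins would give even counts throughout, but a doubling of most reads could still give odd counts.

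No shift in the proportion of miR-107 to miR-103a-3p was detected. MiR-107 counts were 3.30, 3.53, 3.41 and 2.97% of those of miR-103a-3p with ETBF, and 3.25, 2.88, 3.44 and 3.58% in controls. The 2 groups spanned much the same range, and the lowest value of each came from the library with a high miR-103a-3p or a low miR-107 level, control replicate 2 and ETBF replicate 4. The means were 3.30% ± 0.241 under ETBF and 3.29% ± 0.303 for controls (mean ± SD, 4 libraries per group). The log2 ratio of miR-107 to miR-103a-3p differed by 0.01 between the groups (two-sided exact permutation p = 0.914, adjusted p = 0.914 over 3 measures). The 95% interval from inverting that test ran from -0.27 to 0.29. A difference within that interval between the 2 names was not detectable. How many miR-107 counts were reads of miR-103a-3p is not known. The 2 names may therefore not measure the products of PANK1 and of PANK2 and PANK3 separately, which was not tested. Both names stand for 23-base products, so their CPM values need no correction for length, but the efficiency of capture into a library can differ between sequences and was not tested.

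Because a read can fit both names, their sum was examined as well. A read counted under both names would enter this sum more than once. Another pair of names, miR-365a-3p and miR-365b-3p, had the same mean, SD and log2 fold change (-0.094). Whether shared reads were counted under each name was not tested. The sum made up 1.53% ± 0.0459 of all counts with ETBF against 1.13% ± 0.0634 in controls (mean ± SD, 4 libraries per group). Its log2 CPM was 13.92, 13.83, 13.83 and 13.89 under ETBF and 13.44, 13.65, 13.43 and 13.44 without it. Every ETBF library lay above every control. The difference in mean log2 CPM was 0.38 with an interval of 0.18 to 0.49 (two-sided exact permutation p = 0.0286, the smallest that 70 arrangements allow, adjusted p = 0.0857). This did not pass the threshold of 0.05, which the measure could not reach alone after adjustment over 3 measures. When the sum replaced both names in the fit across all miRNAs, its log2 fold change was 0.38 (SE 0.07, edgeR adjusted p = 0.000286 over 479 entries).

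The passenger arm stood at 0.0129, 0.00833, 0.00912 and 0.0177% of miR-103a-3p counts with ETBF and at 0.00368, 0.00702, 0.0161 and 0.00416% in controls. Both hairpins share the 3′ product in the denominator, so this is not the arm ratio of a single hairpin. Reads of the MIR103A1 5′ arm that lack their first base would fit the name in the numerator as well. After adding 0.5 to each count, the log2 ratio was -12.98 ± 0.476 under ETBF and -13.73 ± 0.870 for controls (mean ± SD, 4 libraries per group). The difference of 0.75 had an SE of 0.47 and an adjusted p of 0.468 with limma over 481 pairs of arms, fitted without a filter. It lay between 0.53 and 1.16 when single libraries were left out, highest without control replicate 3, and at 1.22 after thinning to equal depth. The pair was not among the 138 whose arms both passed the filter.

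**Figure D2:**
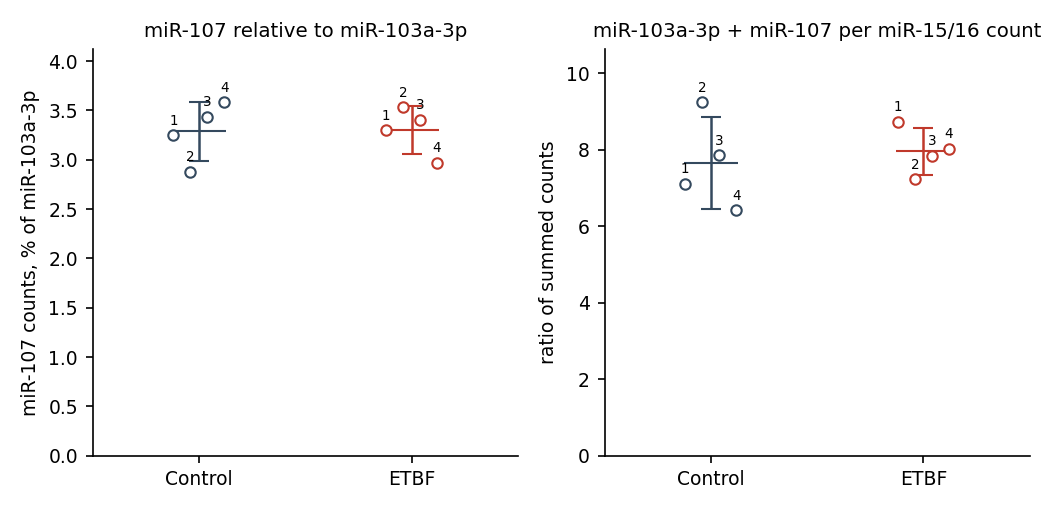
Left, miR-107 counts as a percentage of miR-103a-3p counts in each library; right, summed counts of miR-103a-3p and miR-107 per count of the miR-15/16 seed group, with bars for the mean and SD of 4. The 2 groups overlap in both panels, with miR-107 between 2.88 and 3.58% of miR-103a-3p.

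MiR-103a-3p ranked 11 of 480 by mean level over the 8 libraries, 10 with ETBF and 12 in controls. Its neighbours by mean level were miR-30d-5p at 13377 CPM and miR-200c-3p, an epithelial miRNA of the miR-200 family, at 12296 CPM, against 12840 CPM for miR-103a-3p. Neighbours were picked by mean level, so these 3 levels are close by choice. The SDs over all 8 libraries, which include the group differences, were 3130, 1560 and 1896 CPM. Within the groups the order of the 3 miRNAs changed. In controls miR-103a-3p (11182 ± 904 CPM) was below both miR-30d-5p (16208 ± 1146 CPM) and miR-200c-3p (13635 ± 543 CPM). With ETBF miR-103a-3p (14499 ± 480 CPM) was above both, at 10546 ± 410 and 10957 ± 774 CPM (mean ± SD, 4 libraries per group). Both neighbours fell, with log2 fold changes of -0.62 (SE 0.07, edgeR adjusted p = 3.3e-06) and -0.32 (SE 0.07, adjusted p = 0.00154).

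MiR-107 ranked 86 of 480, 82 with ETBF and 89 in controls. Its neighbours were miR-135b-5p, a miRNA often raised in colorectal tumours, at a mean of 425 CPM, and miR-4521 at 417 CPM, against 422 CPM for miR-107. Picked in the same way, these 3 are close by choice, and their SDs over the 8 libraries were 90.1, 299 and 63.4 CPM. MiR-135b-5p fell from 503 ± 47.8 to 347 ± 17.7 CPM and miR-4521 rose from 140 ± 9.48 to 694 ± 64.9 CPM.

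Among the 20 most abundant miRNAs, miR-103a-3p was the 1 that rose, while 8 fell and the others did not pass. The median log2 fold change of those 20 was -0.11. Of the 50 most abundant, 9 rose and 19 fell, and of the 100 most abundant, which include miR-107, 21 rose and 35 fell. Over all 480 tested miRNAs 19.8% were higher and 14.6% lower. The shares that rose among the 50 and the 100, 18% and 21%, were near that background. The size of the rise was unremarkable across all levels: 115 of the 480 had a larger log2 fold change than miR-103a-3p and 109 a larger one than miR-107. By the p-value, 55 and 60 miRNAs stood ahead of them. The 2 have a GC content of 47.8%. The other 134 tested miRNAs within 5 percentage points of that had a median log2 fold change of -0.02. Of these, 25 were higher and 24 lower, beside 19.8% and 14.6% over all 480.

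**Figure D3:**
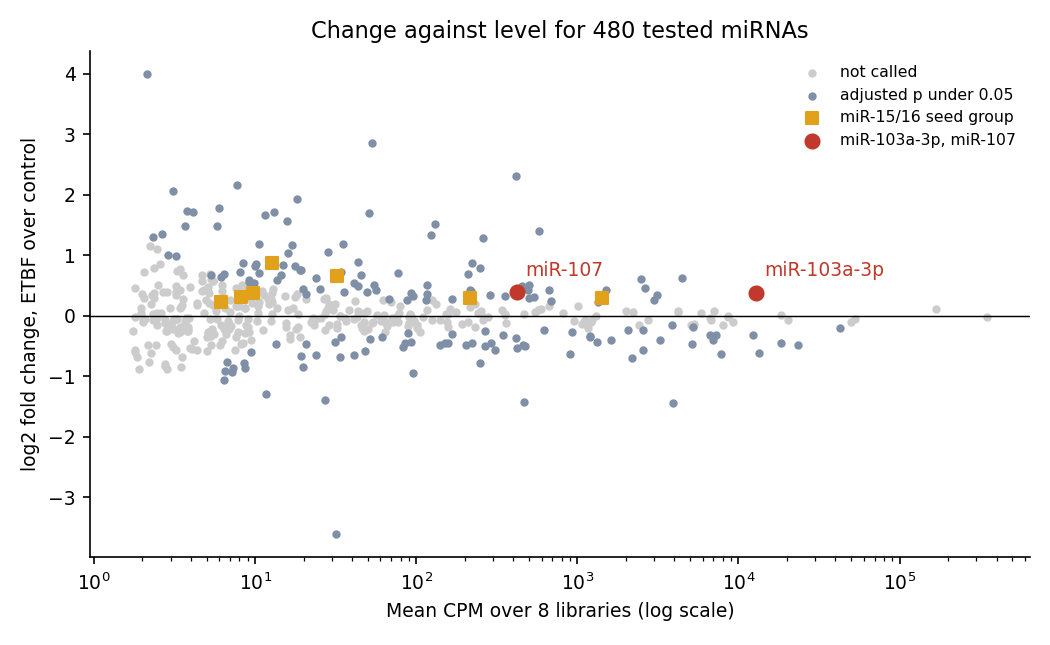
Log2 fold change of ETBF over control against mean CPM (log axis) for the 480 tested miRNAs. Each point is a miRNA, with called miRNAs in blue-grey, the miR-15/16 seed group as squares and the 2 PANK miRNAs in red. MiR-103a-3p at 12840 CPM stands above 0 at a level where most called points lie below it.

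MiRNAs of the miR-15/16 seed group pair with partly the same sites, and they are known to repress cyclins and the survival protein BCL2. Of the 9 measured members 7 were tested: 4 rose, 0 fell and 3 did not pass, beside 19.8% higher and 14.6% lower over all tested miRNAs, with a median log2 fold change of 0.32 against 0.01 for all tested miRNAs. MiR-16-5p, the most abundant, rose from 1276 ± 147 to 1568 ± 102 CPM (0.30, SE 0.08, edgeR adjusted p = 0.0116). It no longer passed when the GC trend was taken out (adjusted p = 0.0880), when levels were scaled by the upper quartile (adjusted p = 0.0725), or when ETBF replicate 2, control replicate 2 or control replicate 3 was left out (adjusted p = 0.0726, 0.0607 and 0.0575). MiR-15b-5p rose by 0.29 (SE 0.08), which did not pass under upper-quartile scaling, with no filter, or with the GC trend taken out (adjusted p = 0.0753, 0.0804 and 0.0702). For miR-15a-5p the control level of 24.9 ± 1.52 CPM rose to 39.2 ± 2.46 CPM, a log2 fold change of 0.65 with an SE of 0.10. MiR-503-5p, whose seed AGCAGCG differs at its last base, rose from 8.95 ± 1.99 to 16.4 ± 1.31 CPM, by 0.86 with an SE of 0.17. The 3 that did not pass were miR-424-5p at 0.38, miR-195-5p at 0.32 and miR-497-5p at 0.22, with SEs of 0.17 to 0.20.

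The PANK pair outnumbered the miR-15/16 group in every library. There were 8.73, 7.23, 7.84 and 8.03 counts of miR-103a-3p and miR-107 per count of the group with ETBF, and 7.11, 9.24, 7.85 and 6.41 in controls. The groups overlapped, with the highest and the lowest value both among the controls. The means were 7.95 ± 0.617 and 7.65 ± 1.21 (mean ± SD, 4 libraries per group). The log2 ratio differed by 0.07 with an interval of -0.35 to 0.44 (two-sided exact permutation p = 0.657, adjusted p = 0.914).

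Among miRNAs linked to p53, as miR-107 has been, 1 of 5 tested rose, 1 fell and 3 did not pass, with a median log2 fold change of 0.11. These counts are near the shares of 19.8% higher and 14.6% lower over all 480 miRNAs and say nothing particular about the list. MiR-34a-5p, the best-known p53 target among miRNAs, was higher by 0.40 (SE 0.09), an increase close in size to that of miR-107. MiR-192-5p fell from 184 ± 17.4 to 149 ± 6.48 CPM (-0.30, SE 0.09, edgeR adjusted p = 0.0124), and miR-194-5p was at 0.11 (SE 0.09, adjusted p = 0.392).

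Of the 5 tested miRNAs from introns of other genes of lipid and energy metabolism, 2 rose, 1 fell and 2 did not pass (median log2 fold change 0.39), beside 19.8% higher and 14.6% lower over all 480. MiR-378a-3p, from an intron of the coactivator gene PPARGC1B, had 2044 ± 311 CPM under ETBF against 1947 ± 102 CPM (0.07, SE 0.09, edgeR adjusted p = 0.592). Its sign turned under upper-quartile scaling (-0.016) and when ETBF replicate 1 was left out (-0.044). Its other arm, miR-378a-5p, rose by 0.39 on the log2 scale, from 31.0 ± 6.01 to 40.7 ± 6.24 CPM, with an SE of 0.14 (adjusted p = 0.0449). It did not pass in 11 of 18 alternatives, where the adjusted p reached 0.194. They included leaving out ETBF replicate 1, 2 or 3 or control replicate 1, 2 or 3. MiR-33a-3p, from the sterol regulator gene SREBF2, was at 0.45 (SE 0.21, adjusted p = 0.119) and passed without ETBF replicate 1 (0.62, adjusted p = 0.0215). The other 2 that changed, named after their values were seen, were miR-33b-3p of SREBF1, higher by 0.68 (SE 0.24), and miR-33a-5p, lower by a log2 fold change of -0.91 (SE 0.22).

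The let-7 family, abundant miRNAs that share with miR-103a-3p and miR-107 the property of repressing DICER1, had 0 of 9 members higher, 2 lower and 7 that did not pass, with a median log2 fold change of -0.09. Of all 480 tested miRNAs, 19.8% were higher and 14.6% lower, and 2 of 9 lower is near the background. Let-7f-5p had 48210 ± 1634 CPM under ETBF against 51862 ± 2551 CPM (-0.11, SE 0.06, edgeR adjusted p = 0.221), and let-7g-5p was at -0.08 (SE 0.06). Both passed as lower once the GC trend was taken out, at -0.26 and -0.19 (adjusted p = 0.00478 and 0.0307). Let-7a-5p fell, at -0.21 (SE 0.06, adjusted p = 0.0170). It did not pass under total-count scaling (adjusted p = 0.0853) or when ETBF replicate 3, ETBF replicate 4 or control replicate 3 was left out (adjusted p = 0.0747, 0.0573 and 0.0684).

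**Figure D4:**
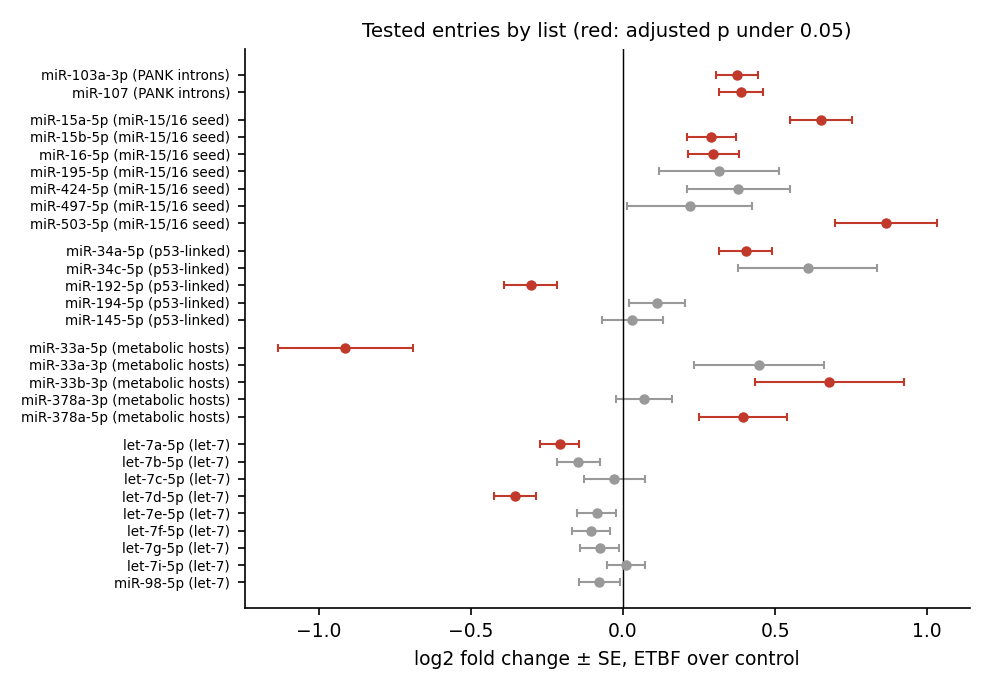
Log2 fold change with its SE for the tested entries of 5 lists, red where the adjusted p was under 0.05. MiR-103a-3p (0.37) and miR-107 (0.39) lie among the miR-15/16 entries, which run from 0.22 to 0.86, while let-7 entries lie near or below 0.

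The miRNAs whose levels followed the pair most closely over the 8 libraries were named by correlation. For miR-103a-3p the 5 highest Pearson correlations of log2 CPM belonged to miR-450b-5p (0.97), miR-7641 (0.97), miR-141-5p (0.95), miR-21-3p (0.95) and miR-548d-3p (0.95). For miR-107 they belonged to miR-195-3p (0.98), miR-128-1-5p (0.97), miR-29b-1-5p (0.97), miR-25-5p (0.97) and miR-29c-5p (0.96). Of these 10 miRNAs 9 rose, beside 19.8% higher over all 480 tested, and miR-29c-5p did not pass (log2 fold change 0.45, edgeR adjusted p = 0.0578). Both members separate the groups, so a choice by correlation favours miRNAs that rose, and the count of 9 adds no evidence. MiR-7641 is 1 of the entries that resemble ribosomal or other RNA, and it rose from 12.6 to 92.9 CPM. The correlation of miR-103a-3p with miR-107 was 0.86, which placed miR-107 at rank 44 of the 479 other miRNAs. These correlations describe 8 libraries that share their group difference, depth and RNA quality, and no test was made of them.

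The direction and the call of the rise held under every alternative, while its size depended on the processing. For miR-103a-3p the log2 fold change lay between 0.28 and 0.43 over 19 alternatives, with an adjusted p of at most 0.00648. For miR-107 it lay between 0.30 and 0.44, with an adjusted p of at most 0.00724. The lowest value of each came after removal of the trend with GC content and the highest with total-count scaling. Without control replicate 2 miR-103a-3p was at 0.42 and miR-107 at 0.37.

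**Figure D5:**
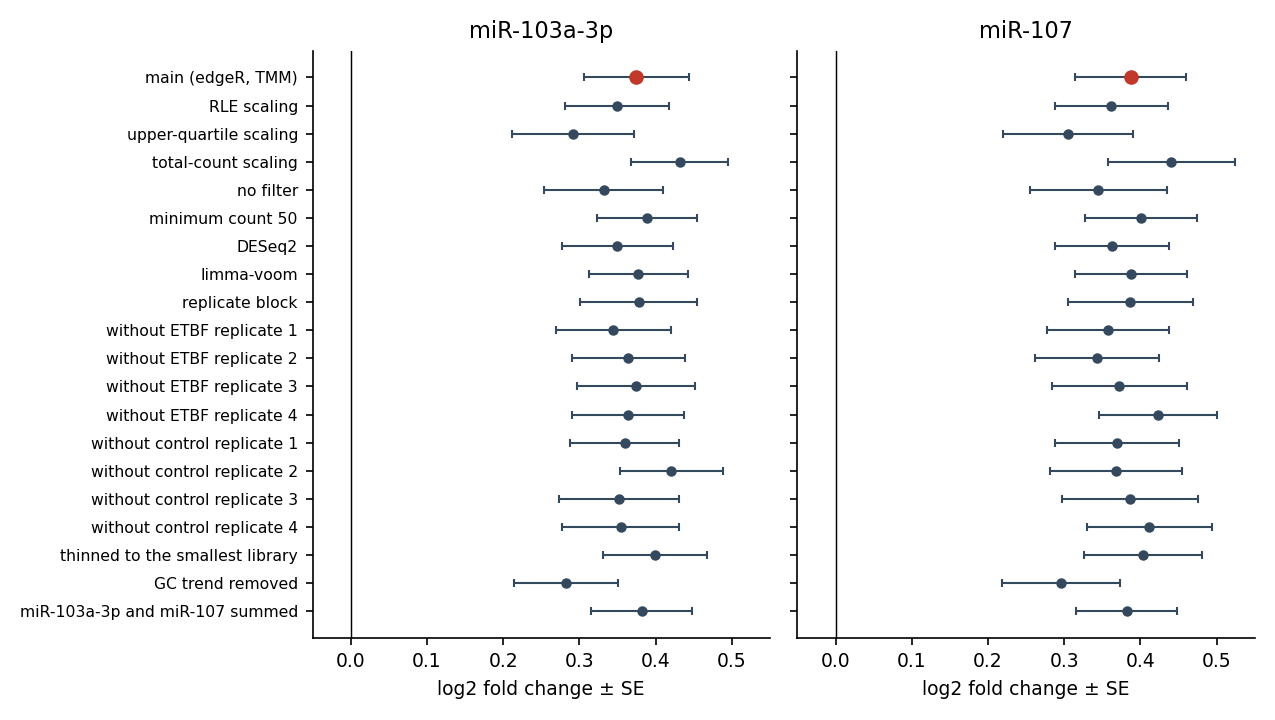
Log2 fold change of miR-103a-3p and miR-107 with its SE in the fit as reported (red) and under each alternative (dark), 1 per row. Values lie between 0.28 and 0.44, to the right of 0 in every row.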

How the data were processed

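Small RNA counts from 8 HCT116 libraries, 4 with ETBF and 4 controls, were grouped by sample title. The deposited files hold raw counts per mature miRNA name, made by the authors with tools that the submitters' processing notes list as Trimmomatic, FastQC and featureCounts, with the build GRCh37.p5. Tool versions, aligner, strand setting and miRNA annotation: not given in the sources used here. Levels and fold changes came from R 4.3.3 and edgeR 4.0.16 (quasi-likelihood F test, TMM, default filter at a minimum count of 10, Benjamini-Hochberg over 480 miRNAs, threshold 0.05). The procedure was tested on simulated counts with the same dispersion for every miRNA, which does not cover differences in RNA quality between libraries. Each SE was derived from the F statistic and is approximate. Ratios and the joint level were compared by exact permutation over 70 arrangements, adjusted over 3 measures, and arm ratios with limma 3.58.1. Alternatives were DESeq2 1.42.0, limma-voom, other scalings and filters, a replicate block, thinning and leaving out each library. The GC trend was a loess fit per library on mature sequences, which 86.9% of tested miRNAs had. Members and lists were chosen with earlier results of these data known. Named besides members were the loci entries with counts, tested miR-15/16 entries, the 3 most abundant of the other lists, neighbours in level, and the 5 miRNAs most correlated with each member.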

Additional observations from a re-analysis of the deposited data

Results flagged for a closer look

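In control replicate 2, miR-103a-3p was at 12534 CPM, far from the other 3 controls at 10654 to 10797 CPM. The gap to the nearest of them made up 0.924 of the range of the group, above the critical value of Dixon's test for 4 samples. This was 1 of 12 groups of values examined, and chance marks about 1 in 20. MiR-107 in that library, at 361 CPM, lay within the other controls. Among controls, this library also had the largest sum of entries that resemble ribosomal or other RNA, 188.5 CPM. That sum stayed below those of the ETBF libraries, which began at 205 CPM. Single entries differed: miR-7641 was highest of the controls there, while miR-1303 and miR-1291 were lowest. A link between these entries and the miR-103a-3p level was not tested.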

How the results depend on the processing

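The calls of miR-103a-3p and miR-107 kept their direction and stayed past the threshold in all 19 alternatives run for each. These covered scaling, filters, tests, leaving out each library, thinning, GC content and summing both names. The summed fit was the same for both names and held mostly miR-103a-3p counts, so it does not check miR-107 by itself. MiR-103a-2-5p did not pass in any of its 13 alternatives (0.69 to 1.48). The ratio of miR-107 to miR-103a-3p changed sign when single libraries were left out (-0.053 to 0.059), as did the ratio to the miR-15/16 group (-0.014 to 0.16), and neither passed. With 3 libraries against 4 the exact test cannot go below 0.0571. The summed level ranged from 0.29 with upper-quartile to 0.43 with total-count scaling, and its exact-test adjusted p was never below 0.0857. MiR-378a-3p was at -0.016 with upper-quartile scaling and ranged from -0.044 to 0.12 with a library left out; the cause was not tested. Of called miRNAs 57.6% were higher, against 44.4% with upper-quartile scaling. Replicate numbers did not pair the libraries: correlations of same-numbered deviations were -0.0584 to 0.0608, and 1 of 8 libraries was closest to its own number. With a replicate block 159 miRNAs were called, against 165, with miR-103a-3p at 0.38 (edgeR adjusted p = 0.0033), miR-107 at 0.39 (adjusted p = 0.00432), miR-103a-2-5p at 0.99 (adjusted p = 0.322) and its arm ratio at 0.75, which the block leaves as it is by construction (0.53 to 1.16 with a library left out, 1.22 thinned). Depth limits miR-103a-2-5p, with 2 to 9 counts per library.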
